A study of Mus musculus with 6 samples.

Results

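Aminoacyl-tRNA synthetases join each amino acid to its tRNA, and they were examined here in mouse splenic plasma cells sorted as IgG1-positive or IgM-positive. The 36 genes listed encode 20 cytosolic enzymes or subunits (Aars to Yars) and 16 mitochondrial enzymes, whose symbols end in 2. A gene was kept when its FPKM (fragments per kilobase of transcript, scaled to the library's mapped fragments) reached 1 in 3 or more of the 6 libraries. This kept 35 of the 36 genes, namely all 20 cytosolic and 15 of 16 mitochondrial ones, among the 9087 of 24346 gene symbols that passed the same filter. Wars2, the mitochondrial tryptophan enzyme, stayed outside it, with 0.37, 2.72 and 0.00 FPKM in IgG1 cells and 0.42, 2.30 and 0.54 FPKM in IgM cells, so 2 of 6 libraries reached 1. The genes nearest to the limit inside it were Ears2 and Aars2, which reached 1 in 4 and 5 libraries, and 0 of the kept genes were at 1 or above in a single group only.

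The groups compared were 3 libraries of IgG1 plasma cells and 3 libraries of IgM plasma cells. Both came from congenically marked B1-8germ B cells, whose rearranged heavy chain gene recognises the hapten NP, after transfer into wild-type C57BL/6J hosts immunised with NP-CGG in alum. Donor-derived plasma cells were sorted from the spleen on day 7, so the host's own cells were to be left out by the congenic marker. Separate animals are not named as the source of the replicate libraries, so the tests below set differences against the variation among libraries only, which could be technical.

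Most synthetases recognise 1 amino acid and its tRNAs, while the enzyme made from Eprs serves both glutamate and proline. Translation stalls when a charged tRNA runs short. The cytosol and the mitochondrial matrix have separate enzyme sets, with a few genes that serve both: Kars and Gars make lysine and glycine enzymes for either compartment. Mitochondrial glutamine tRNA is charged by another route, in which Ears2 loads glutamate and an amidotransferase converts it. Several cytosolic enzymes sit in a multi-synthetase complex held together by the scaffold proteins AIMP1, AIMP2 and AIMP3. Many cytosolic synthetase genes are induced by the transcription factor ATF4 when amino acids are scarce, and plasma cells are known for a heavy load of antibody synthesis.

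ATF4 acts through sites with the core TGATGNAA, and the 250 bases before the RefSeq gene start (GRCm38.p6) were searched for these letters on both strands. Of the 36 genes, 27 had a promoter in the table used, and 3 of these (11.1%) held a match, Aars, Gars and Tars, against 3.91% of all 27025 genes with a promoter and 2.47% of the 7031 among them that were tested for expression. All 3 were among the 13 cytosolic genes searched, and 0 of 14 mitochondrial genes held a match. The promoters of Eprs and Tars are shown because these cytosolic genes were the ones called lower in IgG1 cells, that of Lars2 because it had the largest call among the mitochondrial genes, and a short stretch of Gars because it shares the motif with Tars. Capitals mark a match or its reverse complement.
Tars (chr15:11399659-11399908, minus strand): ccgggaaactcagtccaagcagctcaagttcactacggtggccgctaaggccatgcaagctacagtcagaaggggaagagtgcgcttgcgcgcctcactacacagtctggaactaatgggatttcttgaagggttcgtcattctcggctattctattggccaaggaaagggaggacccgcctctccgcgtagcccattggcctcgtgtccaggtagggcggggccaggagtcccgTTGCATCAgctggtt
Gars (chr6:55037960-55037989, plus strand): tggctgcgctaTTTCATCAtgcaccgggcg
Eprs (chr1:185362794-185363043, plus strand): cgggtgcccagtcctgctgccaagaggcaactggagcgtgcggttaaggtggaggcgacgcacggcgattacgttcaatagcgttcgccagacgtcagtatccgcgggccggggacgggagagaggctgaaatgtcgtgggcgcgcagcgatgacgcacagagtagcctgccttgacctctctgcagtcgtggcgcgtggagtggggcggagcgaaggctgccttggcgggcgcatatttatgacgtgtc
Lars2 (chr9:123366677-123366926, plus strand): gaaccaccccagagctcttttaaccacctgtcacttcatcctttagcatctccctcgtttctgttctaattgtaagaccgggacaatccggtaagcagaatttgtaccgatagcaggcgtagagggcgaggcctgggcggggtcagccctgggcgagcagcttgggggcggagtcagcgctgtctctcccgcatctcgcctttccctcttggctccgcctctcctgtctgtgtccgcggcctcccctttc
The match in Tars began 15 bases before the gene start and that in Gars 30 bases before it. The letters CCGGAAG, a core bound by ETS factors such as GABP that are known at mitochondrial gene promoters, were in 7 of the 27 genes (25.9%), against 19.2% of tested genes and 7.83% of all genes. These 7 were Farsa, Gars, Mars and Sars among cytosolic and Cars2, Mars2 and Sars2 among mitochondrial genes. The palindromic site of NRF1, a regulator of mitochondrial genes, was in 0 of 27, against 2.32% of tested genes. These are matches of letters in 1 window and were not compared with any binding data.

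The libraries were plasma cell libraries by their markers, and they differed in how values followed transcript length. All 10 plasma cell markers, Sdc1, Xbp1, Jchain and Mzb1 among them, were expressed in every library, with summed levels of 38902 to 41195 FPKM in IgG1 and 46509 to 52548 FPKM in IgM cells. Of the 10, 5 (Irf4, Jchain, Prdm1, Slamf7 and Tnfrsf17) were called lower in IgG1 cells with limma, against 1.76% of all tested genes. After each library's trends with length and GC content were removed, 4 were called lower, with Irf4 (adjusted p = 0.182) and Prdm1 (0.0855) lost and Fkbp11 (0.00567) gained. In fits without 1 library Jchain and Tnfrsf17 were called in 6 of 6, Irf4 in 4, Prdm1 in 2 and Slamf7 in 1. Of 9 B cell markers, Pax5 was at 0 in all libraries, and the summed level was 97.5 to 124 FPKM in IgG1 and 124 to 153 FPKM in IgM cells. Summed levels of the T cell markers were 1.13 to 4.44 FPKM in IgG1 and 0.49 to 2.69 FPKM in IgM cells, those of the NK cell markers 0.96 to 9.18 and 1.10 to 3.45 FPKM, and those of the myeloid markers 6.17 to 9.77 and 9.22 to 16.1 FPKM. Neutrophil markers were at 0 throughout, and erythroid and platelet markers summed to 0.07 to 1.15 FPKM in IgG1 and 0.11 to 0.35 FPKM in IgM cells. Over tested genes, Spearman rho between transcript length and a library's deviation from the mean of each gene was -0.24 to -0.15 in IgG1 and 0.15 to 0.30 in IgM libraries, so long transcripts read lower in IgG1 libraries. The genes called below are therefore also given from a fit in which the trend of every library with length and GC content was removed. In bulk RNA, fewer cells of a type and less RNA per cell cannot be told apart.

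By the mean over the 6 libraries every cytosolic gene lay above every mitochondrial gene, with 1 exception. The mean over the 6 libraries was 39.3 to 270 FPKM for the cytosolic genes (median of the genes 74.3 FPKM) and 1.61 to 33.7 FPKM for the mitochondrial genes other than Lars2 (median with Lars2 16.9 FPKM). The exception, Lars2, averaged 1853 FPKM, above every cytosolic gene. In IgG1 libraries alone Fars2 averaged 43.8 FPKM, above the cytosolic genes Cars (41.6), Eprs (38.3) and Lars (27.3). FPKM is per transcript length, but the libraries differed from each other in a way that followed length. Whether levels follow length within a library was not tested. The order of genes close in level is therefore uncertain, and shared sequence in Lars2 is described below.

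Nars, the asparagine enzyme, had the highest cytosolic level, with 246, 309 and 211 FPKM in IgG1 libraries and 280, 277 and 301 FPKM in IgM libraries. Vars, the valine enzyme, had 238, 281 and 335 FPKM in IgG1 and 224, 283 and 237 FPKM in IgM libraries. Yars, the tyrosine enzyme, had 182, 187 and 196 FPKM in IgG1 and 172, 149 and 169 FPKM in IgM libraries. The groups overlapped for Nars and Vars, while all IgG1 values of Yars lay above its IgM values. None of these 3 was called, with log2 fold changes (IgG1 minus IgM, of FPKM + 1) of -0.18 (95% interval -0.49 to 0.13) for Nars, 0.19 (-0.13 to 0.51) for Vars and 0.21 (-0.06 to 0.47) for Yars. Nars and Vars did not differ from each other beyond their spread, at means of 270 and 266 FPKM.

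**Figure D1:**
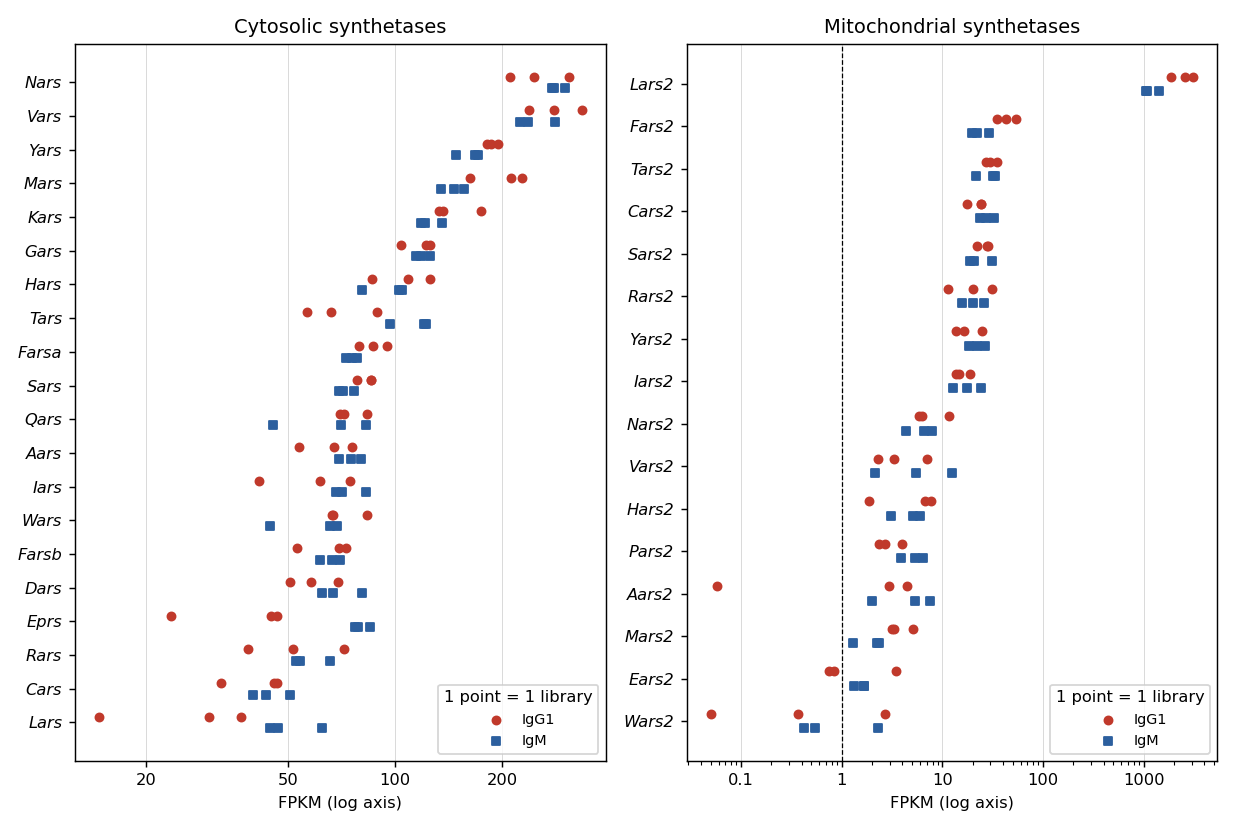
FPKM of each synthetase gene in each library on a log axis, with cytosolic genes on the left and mitochondrial genes on the right, ordered by mean. IgG1 libraries are red circles and IgM libraries blue squares, the dashed line marks an FPKM of 1, and a value of 0 is drawn at 0.05. Lars2 stands at 1046 to 3123 FPKM, while the other mitochondrial genes average 33.7 FPKM or less.

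Most synthetase genes, 31 of 35, were not called different between the isotypes, and no test was run over the set. With limma and Benjamini-Hochberg adjustment over all 9087 tested genes, 4 of the 35 genes passed an adjusted p of 0.05, which is 11.4%, against 6.02% of all tested genes. The 2 cytosolic genes called, Eprs and Tars, were lower in IgG1 cells, a direction called for 1.76% of all tested genes. The 2 mitochondrial genes called, Lars2 and Fars2, were higher in IgG1 cells, a direction called for 4.26% of all. The median log2 fold change was -0.03 for the 20 cytosolic and -0.04 for the 15 mitochondrial genes, against -0.05 for all tested genes. The summed cytosolic level was 2029, 2171 and 2099 FPKM in IgG1 and 2111, 2120 and 2039 FPKM in IgM libraries, and these ranges overlapped. As a share of all summed FPKM the cytosolic set made up 0.237%, 0.247% and 0.230% in IgG1 and 0.289%, 0.263% and 0.269% in IgM libraries. These shares did not overlap, beside total summed FPKM of 855123 to 914019 in IgG1 and 730695 to 806599 in IgM libraries.

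**Figure D2:**
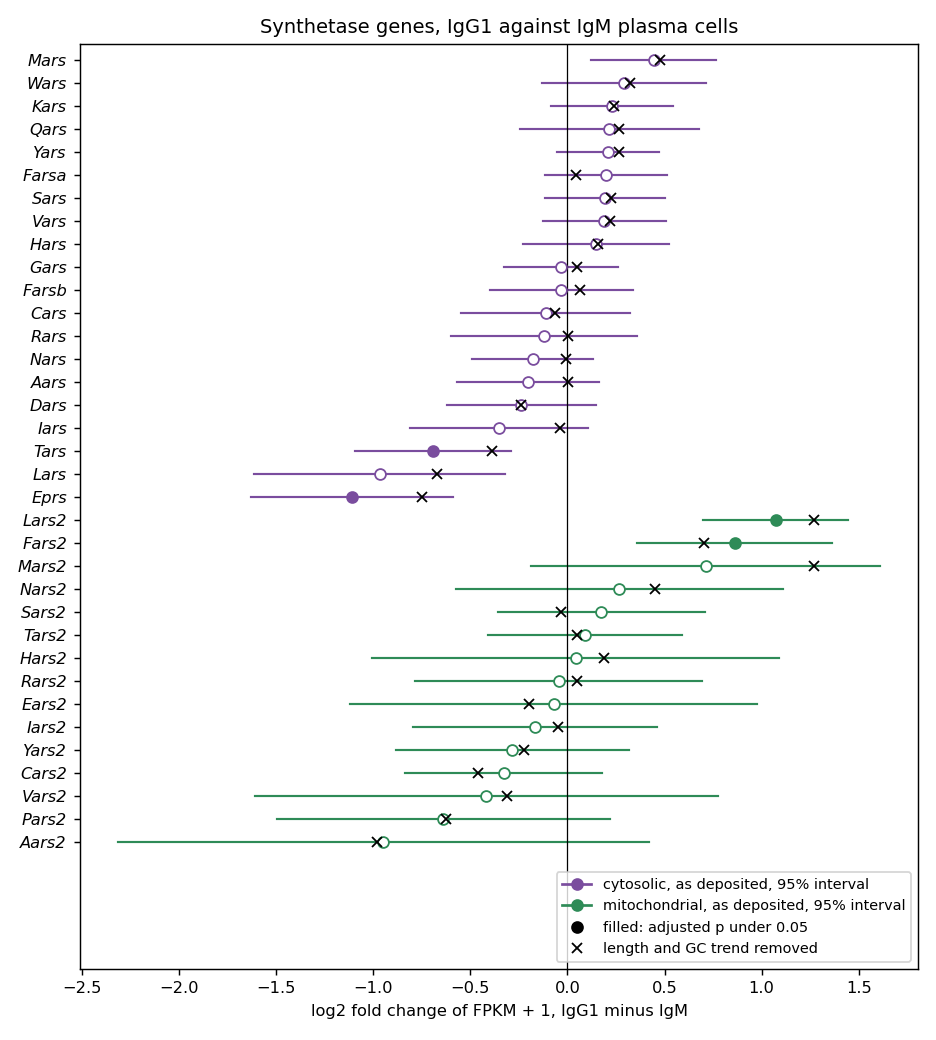
Log2 fold change of FPKM + 1, IgG1 minus IgM, for the 35 tested genes, with cytosolic genes above and mitochondrial genes below. Circles with lines are the estimates with limma's 95% interval, filled where the adjusted p is under 0.05, and crosses are the estimates after each library's length and GC trend was removed. Eprs and Tars lie below 0 and Lars2 and Fars2 above it, and of these the cross of Lars2 is the one farther from 0 than its circle.

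Eprs encodes the enzyme of the multi-synthetase complex that charges both glutamate and proline tRNAs. It had 46.7, 44.7 and 23.5 FPKM in IgG1 libraries, against 77.1, 79.0 and 85.2 FPKM in IgM libraries. All IgG1 values lay below all IgM values, and IgG1 library 3 was the lowest. The mean was 2.10-fold lower in IgG1 cells, at 38.3 ± 12.9 against 80.4 ± 4.24 FPKM (SD, n = 3 each; limma log2 fold change -1.11, SE 0.24, adjusted p = 0.0205). After the length and GC trends were removed Eprs, whose median annotated transcript is 4906 nt long, was at -0.75 (SE 0.21) with a limma adjusted p of 0.0829. Without IgM library 1, 2 or 3 its limma adjusted p was 0.0863, 0.0567 and 0.0751. Eprs lies on chromosome 1 from 185363044 to 185428360 (GRCm38), and its exons overlap no other protein-coding gene.

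Tars, the cytosolic threonine enzyme, had 89.0, 66.3 and 56.7 FPKM in IgG1 libraries, against 121, 97.0 and 122 FPKM in IgM libraries. The groups did not overlap, with means of 70.7 ± 16.6 FPKM in IgG1 and 113 ± 14.3 FPKM in IgM cells (SD, n = 3 each). The log2 fold change was -0.69 (SE 0.18, limma adjusted p = 0.0471). It was -0.39 with a limma adjusted p of 0.202 after the length and GC trends were removed, and the median annotated transcript of Tars is 4005 nt long. Without 1 library the call was lost in 5 of 6 cases, with limma adjusted p up to 0.204, and it held without IgG1 library 1. Tars lies on chromosome 15 from 11382301 to 11399665, and bases 2970 to 3164 of its 4005-nt transcript resemble a retained-intron transcript of Gatad2b.

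Lars, the leucine enzyme of the multi-synthetase complex, had the lowest mean of the cytosolic genes and the second largest difference. Its values were 36.95, 30.1 and 14.7 FPKM in IgG1 and 44.6, 46.9 and 62.3 FPKM in IgM libraries. The groups did not overlap, and IgG1 library 3 was again the lowest. The log2 fold change of -0.97 (SE 0.30, limma adjusted p = 0.0785) did not pass the threshold, and it was -0.67 (adjusted p = 0.216) after the trends were removed. It passed without IgG1 library 1 (-1.23, limma adjusted p = 0.0395).

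Mars, the methionine enzyme of the same complex, was the cytosolic gene with the largest positive value. It had 163, 227 and 211 FPKM in IgG1 and 147, 156 and 135 FPKM in IgM libraries, which did not overlap. Its log2 fold change was 0.44 (SE 0.15, limma adjusted p = 0.0986) and 0.47 (adjusted p = 0.0909) after the trends were removed, and without IgG1 library 1 it passed, at 0.59 (limma adjusted p = 0.034). Exons of Mars overlap those of Ddit3 on the opposite strand, so reads there cannot be assigned without strand.

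The 8 enzymes of the multi-synthetase complex, which bind in 1 assembly, differed in direction, with 5 negative and 3 positive values. Of these 8, 1 was called (Eprs, lower), against 1.76% of all tested genes called lower, and the median was -0.18. Within a library the highest of the 8 levels was 4.40, 7.56 and 14.4 times the lowest in IgG1 libraries and 3.29, 3.33 and 2.98 times in IgM libraries. The ratio of Eprs to Mars was 0.287, 0.197 and 0.111 in IgG1 and 0.525, 0.506 and 0.631 in IgM libraries. Of the 12 cytosolic genes outside the complex, 1 was called (Tars), and the median was 0.06. Farsa and Farsb, the subunits that make up the cytosolic phenylalanine enzyme, stood in a ratio of 1.50, 1.19 and 1.36 in IgG1 and 1.18, 1.11 and 1.14 in IgM libraries. Of the complex scaffolds, Aimp2 was higher in IgG1 cells, with 151, 172 and 178 FPKM against 89.4, 115 and 98.1 FPKM in IgM cells (limma log2 fold change 0.73, SE 0.14, adjusted p = 0.0135). It was at 0.46 (limma adjusted p = 0.0656) after the trends were removed, it was called without IgG1 library 1 or IgM library 2 but not without any 1 of the other 4 libraries (adjusted p 0.0508 to 0.0853), and its exons overlap those of Eif2ak1 on the opposite strand. Aimp1 (0.13) and Eef1e1, which encodes AIMP3 (0.39), were positive and not called.

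Of the 12 cytosolic genes known as targets of ATF4, 2 were lower (Eprs and Tars), 0 higher and 10 not called, with a median of -0.15. Of the other 8 cytosolic genes 0 were called, with a median of 0.17. Among all tested genes 1.76% were called lower and 4.26% higher, and the lists were not compared by a test. After the trends were removed the medians were -0.00 and 0.11 with 0 calls in either list, and the ATF4 list had a median transcript length of 2930 nt against 2051 nt for the other list. Atf4 itself had 104, 102 and 75.3 FPKM in IgG1 and 114, 113 and 84.7 FPKM in IgM libraries (limma log2 fold change -0.14, adjusted p = 0.694), and the groups overlapped. Of 12 genes of the amino acid stress response, 10 were tested and 0 were called in either direction. Eif2s1, the initiation factor subunit through which this response acts, was at 71.2 ± 7.46 in IgG1 and 64.2 ± 2.52 FPKM in IgM cells (SD, n = 3 each; limma log2 fold change 0.14, adjusted p = 0.641).

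Fold changes were also set beside transcript length, as a description with no test. Of the 6 cytosolic genes with a median transcript over 3500 nt (Aars, Eprs, Iars, Lars, Tars and Vars), 5 were negative with a median of -0.52, and of the 14 shorter ones 6 were negative with a median of 0.17. Vars, at 4137 nt, was the positive one among the long genes. Across the 20 cytosolic genes Spearman rho between length and log2 fold change was -0.32, and it was -0.20 after the trends were removed. Across the 15 mitochondrial genes rho was -0.07, and it was 0.07 after the removal. The 3 mitochondrial genes over 3500 nt, Lars2, Mars2 and Vars2, had a median of 0.71, against -0.06 for the 12 shorter ones. Genes are not replicates, and they share the libraries. Iars, the isoleucine enzyme, had 61.6, 74.8 and 41.5 FPKM in IgG1 and 83.1, 70.9 and 68.3 FPKM in IgM libraries, and its log2 fold change was -0.35 before and -0.04 after the removal. A processed pseudogene, Gm4849, matches 1656 nt of Iars at 96.0% identity, so its level also depends on where multiply matching reads were placed.

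**Figure D3:**
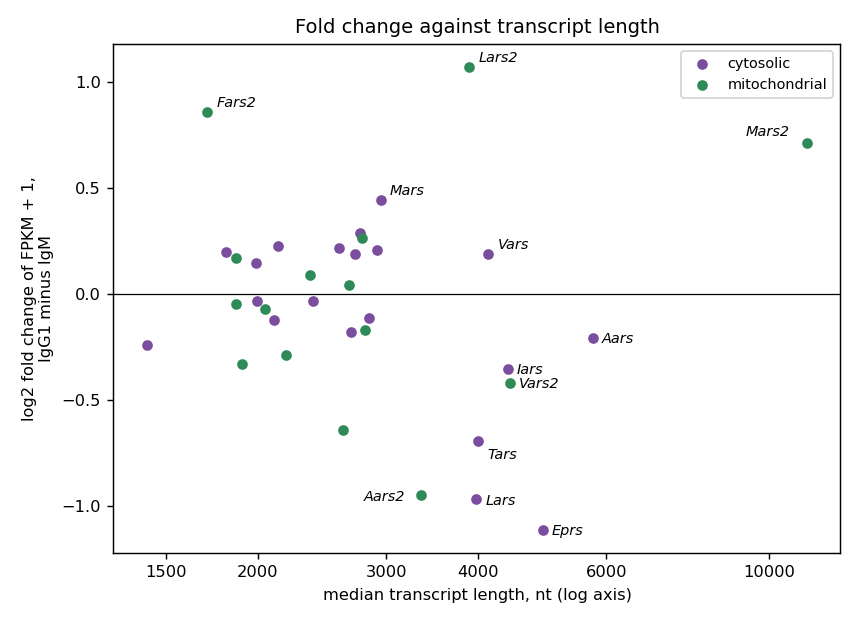
Log2 fold change of FPKM + 1, IgG1 minus IgM, against the median annotated transcript length on a log axis, 1 point per tested gene, with cytosolic genes in purple and mitochondrial genes in green. Among cytosolic genes over 3500 nt, Eprs, Lars, Tars, Iars and Aars lie below 0 and Vars above it, while Lars2 lies at 1.07 with 3894 nt.

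Lars2, the mitochondrial leucine enzyme, had the smallest adjusted p of the 35 genes. It had 1887, 2553 and 3123 FPKM in IgG1 libraries, against 1089, 1418 and 1046 FPKM in IgM libraries. Every IgG1 value was above every IgM value. The mean was 2.13-fold higher in IgG1 cells, at 2521 ± 619 against 1184 ± 203 FPKM (SD, n = 3 each; limma log2 fold change 1.07, SE 0.17, adjusted p = 0.00665). It was called without any 1 of the 6 libraries (largest limma adjusted p 0.0393) and after the trends were removed (1.27, SE 0.18, adjusted p = 0.00631). It was not called without the expression filter (adjusted p = 0.113) or without limma's intensity trend (0.144), settings that called 6 and 8 genes in all. Lars2 lies on chromosome 9 from 123366927 to 123462666 and its exons overlap no other protein-coding gene.

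The level of Lars2 was out of scale with its set. It made up 89.8%, 92.5% and 94.0% of the summed mitochondrial synthetase FPKM in IgG1 and 85.0%, 86.7% and 85.3% in IgM libraries. Its 3′ UTR, which starts at base 2906 of the 3894-nt transcript, holds a stretch of 72 nt (bases 3278 to 3349) with 98.6% identity to Gm15564, an antisense transcript of another locus. Around it a stretch of 196 aligned nt matches the unclassified transcript AA474408 at 80.1% identity. Both matches came from a looser search made for Lars2 alone. They fall outside the limits used for all members, 200 aligned nt and 90% identity, at which Lars2 had no match to another gene. How reads from such stretches were assigned is not given in the sources used here. Rn45s, the precursor of ribosomal RNA, had 1064, 1221 and 1251 FPKM in IgG1 and 728, 1082 and 696 FPKM in IgM libraries, and the groups overlapped (limma log2 fold change 0.52, SE 0.15, adjusted p = 0.07). IgM libraries 1 and 3 were the lowest in both Rn45s and Lars2. The ratio of Lars2 to Rn45s was 1.77, 2.09 and 2.50 in IgG1 and 1.50, 1.31 and 1.50 in IgM libraries, which did not overlap. The part of ribosomal RNA or of shared sequence in the Lars2 level was not tested.

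Fars2, the mitochondrial phenylalanine enzyme, was next in level after Lars2, with 34.9, 53.9 and 42.7 FPKM in IgG1 libraries, against 19.8, 29.1 and 22.0 FPKM in IgM libraries. The groups did not overlap, with means of 43.8 ± 9.57 FPKM in IgG1 and 23.6 ± 4.86 FPKM in IgM cells (SD, n = 3 each), a 1.86-fold difference. The log2 fold change was 0.86 (SE 0.23, limma adjusted p = 0.0483), close to the threshold. It was 0.70 with a limma adjusted p of 0.12 after the trends were removed, and of the 6 fits without 1 library it was called in the fit without IgG1 library 1, while the other 5 gave adjusted p of 0.0514 to 0.213. Fars2 lies on chromosome 13 from 36117412 to 36726280, and its exons overlap those of Lyrm4 on the opposite strand. Lyrm4 had 6.55, 13.6 and 7.91 FPKM in IgG1 and 2.17, 5.82 and 3.34 FPKM in IgM libraries, which also did not overlap (limma log2 fold change 1.13, adjusted p = 0.139).

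The other 13 mitochondrial genes were not called, with log2 fold changes of -0.95 to 0.71 and limma adjusted p of 0.343 to 0.969. The outer values belonged to low genes. Aars2, the alanine enzyme, had 4.42, 2.98 and 0.06 FPKM in IgG1 and 2.00, 7.60 and 5.34 FPKM in IgM libraries (-0.95, SE 0.63, adjusted p = 0.416 with limma). Mars2, the methionine enzyme, had 5.13, 3.31 and 3.15 FPKM in IgG1 and 2.34, 1.30 and 2.25 FPKM in IgM libraries, which did not overlap (0.71, SE 0.41, adjusted p = 0.343 with limma). Tars2, the threonine enzyme and next in level after Fars2, had 27.0, 35.25 and 29.8 FPKM in IgG1 and 33.7, 32.25 and 21.5 FPKM in IgM libraries, which overlapped (0.09, 95% interval -0.41 to 0.59).

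Precision differed between the compartments. The standard error of the log2 fold change had a median of 0.17 over the cytosolic and 0.34 over the mitochondrial genes, of which 7 of 15 averaged under 10 FPKM. The 95% interval lay wholly between -1 and 1, a 2-fold change, for 17 of 20 cytosolic genes and 6 of 15 mitochondrial genes. For the other 9 mitochondrial genes a 2-fold difference in at least 1 direction was within the interval. Values of the groups did not overlap for 4 cytosolic genes higher in IgG1 (Farsa, Mars, Sars and Yars), 3 lower (Eprs, Lars and Tars) and 3 mitochondrial genes higher (Fars2, Lars2 and Mars2). Of all tested genes 13.7% were higher and 13.5% lower in IgG1 without overlap.

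Setting each cytosolic enzyme over its mitochondrial counterpart gave ratios above 1 for 14 of 15 pairs. Eprs enters 2 of these pairs, over Ears2 for glutamate and over Pars2 for proline, so the pairs are not all separate. The ratio of mean FPKM was highest for methionine, where Mars over Mars2 was 31.7, 68.7 and 67.2 in IgG1 and 62.7, 120 and 60.0 in IgM libraries, which overlapped. The highest single ratio, 943 for alanine in IgG1 library 3, rests on the 0.06 FPKM of Aars2 in that library. The ratio of means was below 1 for leucine alone, where Lars over Lars2 was 0.0196, 0.0118 and 0.00471 in IgG1 and 0.041, 0.0331 and 0.0596 in IgM libraries. For leucine and for phenylalanine (Farsa over Fars2, 2.28, 1.61 and 2.22 in IgG1 against 3.68, 2.68 and 3.44 in IgM) every IgG1 ratio was below every IgM ratio. These were 2 of 15 pairs, or 13.3%, and both hold a called gene. Of single genes 13.5% were lower in IgG1 without overlap. No such share was computed for ratios of 2 genes, so the count of pairs has no matching background. The ratio of the summed sets was 0.965, 0.787 and 0.632 in IgG1 and 1.65, 1.30 and 1.66 in IgM libraries. Without Lars2, a comparison added after the data were seen, it was 9.48, 10.5 and 10.6 in IgG1 and 11.0, 9.77 and 11.3 in IgM libraries, and the groups overlapped.

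**Figure D4:**
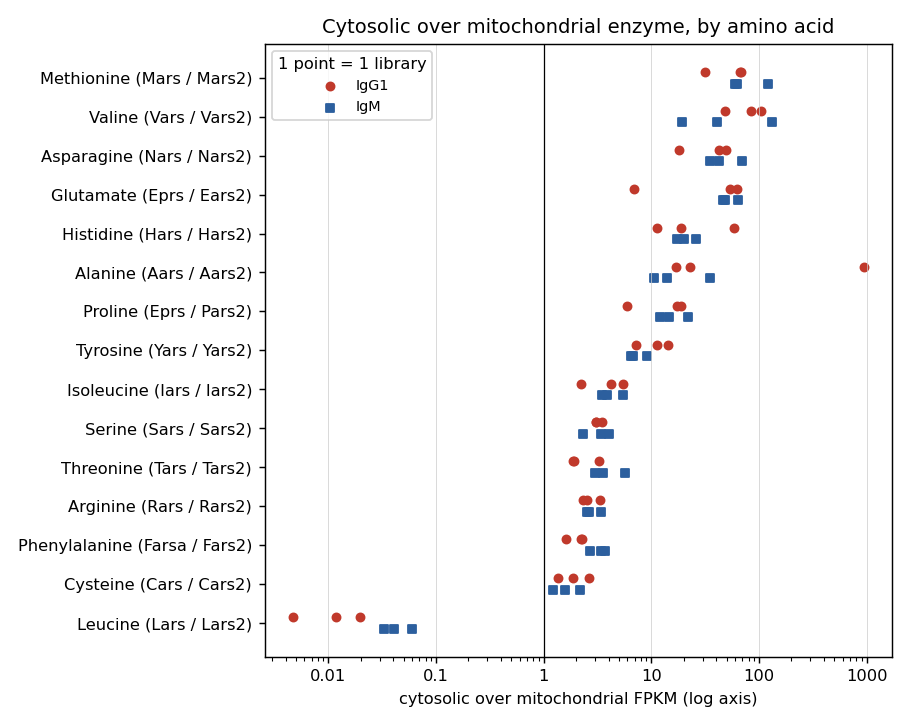
FPKM of the cytosolic enzyme over that of the mitochondrial enzyme for the same amino acid on a log axis, 1 point per library, with IgG1 as red circles above and IgM as blue squares below in each row. The vertical line marks equal levels. Leucine lies at 0.00471 to 0.0596 and all other pairs above 1, with methionine highest by mean.

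Genes that work next to the synthetases showed 1 call, where 6.02% of all tested genes were called in either direction. Of 5 tested elongation factor genes (Eef1a1, Eef1b2, Eef1d, Eef1g and Eef2), 0 were called and 5 were positive. Eef1a1 averaged 2774 ± 102 FPKM in IgG1 and 2535 ± 131 FPKM in IgM cells, and Eef1g 915 ± 145 and 653 ± 108 FPKM (SD, n = 3 each; limma adjusted p = 0.45 and 0.0709). Of 8 partners of mitochondrial tRNA charging and delivery 0 were called, with Tufm, the mitochondrial elongation factor, at 92.7 ± 25.3 in IgG1 and 95.2 ± 12.4 FPKM in IgM cells and Tsfm, its exchange factor, at 53.7 ± 2.57 and 44.2 ± 2.15 FPKM (SD, n = 3 each; limma adjusted p = 0.882 and 0.351). Of 8 genes for proofreading, related enzymes and tRNA modification 0 were called. Among them Aarsd1, which clears mischarged alanine tRNA, was at 87.1 ± 5.61 in IgG1 and 72.5 ± 9.39 FPKM in IgM cells and Yrdc at 48.6 ± 3.02 and 36.8 ± 16.1 FPKM (SD, n = 3 each; limma adjusted p = 0.341 and 0.312). The call was that of Aimp2, given above.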

How the data were processed

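The deposited values were FPKM per gene symbol, 1 file per library, per the file headers. Per the labels' protocols, full-length cDNA from total RNA was made with a SMART-Seq HT kit and libraries with Nextera XT. The build was mm10 and the tools included Cuffdiff, Cufflinks 2.2.1, Bowtie2 2.3.5.1 and TopHat2 2.1.1, per the submitters' processing notes. Which annotation and which scaling across libraries the authors used is not given in the sources used here. FPKM were used as deposited. Genes at 1 FPKM or more in at least 3 of 6 libraries were tested as log2(FPKM + 1), a scale that understates changes of low genes, with limma 3.58.1 in R 4.3.3 (eBayes with intensity trend), IgG1 minus IgM, Benjamini-Hochberg adjustment over all 9087 genes and a threshold of 0.05. The procedure was tested on simulated data with independent noise for each gene. These data held no trend with length or GC content, so that test does not bear on such trends.

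The genes and lists were chosen with earlier results of these data known. Named genes were those called, the 3 highest by mean and the 3 with the largest absolute fold change in each compartment, and the pairs with the highest and lowest ratio. In partner lists they were the genes called or else the 2 highest. Iars, Farsa, Farsb, Wars2, Ears2, Lyrm4, Rn45s, Aimp1 and Eef1e1 were named outside this rule, after their values were seen. Lengths, GC content, positions and exon overlaps came from GENCODE vM21 (GRCm38, the assembly mm10 names), with lengths for 96.5% of tested genes. In all, 9 of the 36 genes had exons overlapping another protein-coding gene. Trends were removed by lowess (span 0.3) on length and then GC content. Shared sequence was searched with blastn 2.17.0, for all members at 200 or more aligned nt and 90% or more identity. For Lars2 alone a looser search was added. Promoters came from RefSeq.

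Depth was not given. The most frequent low value of FPKM times length was taken as the step of 1 fragment. It put depth at about 15500000 fragments in each IgG1 library and 16200000, 17000000 and 17800000 in IgM libraries 1 to 3. At these depths 1 FPKM over 2000 nt is about 31.0 to 35.6 fragments. The estimate is rough, as values were binned and the scaling across libraries is not given.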

Additional observations from a re-analysis of the deposited data

How the results depend on the processing

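Over 19 alternatives the call of Lars2 held in 17, that of Eprs in 12, that of Tars in 7 and that of Fars2 in 5, and their direction held in all. Of the 35 genes, 4 were called as reported, 2 with a pseudocount of 0.1 or array weights, 1 with the length and GC correction, with or without the block, and 0 without the filter or the intensity trend. Lower cytosolic calls (2) came to 1 with a pseudocount of 0.1, median centring or array weights and to 0 without the filter, without the intensity trend and with the length and GC correction, with or without the block. Higher mitochondrial calls (2) came to 1 with a pseudocount of 0.1, quantile normalization, rescaling without Jchain, robust moderation, array weights and the length and GC correction, with or without the block, and to 0 without the filter or the intensity trend. Leaving out 1 library gave 1 to 6 called genes, 0 to 3 lower and 0 to 1 higher cytosolic calls, and 1 to 2 higher mitochondrial calls. Without IgG1 library 1, 2 and 3 the numbers called were 6, 2 and 2, and without any 1 IgM library 1. Rescaling without Jchain moved the median of all genes to -0.25 and that of the cytosolic genes to -0.26, and Lars was then called (-1.19). The mean ratio of the summed cytosolic to the summed mitochondrial level was 0.795 in IgG1 and 1.54 in IgM libraries, and 0.709 to 0.876 and 1.47 to 1.66 with 1 library left out. It was 5.81 and 5.20 with medians in place of sums, 0.592 and 1.16 for amino acids with both enzymes, and 10.2 and 10.7 without Lars2, the gene that sets the sum. Over all genes 387 were higher and 160 lower (70.7% higher), against 489 and 118 (80.6%) with median centring, 188 and 200 (48.5%) with quantile normalization, 177 and 394 (31.0%) with rescaling without Jchain and 130 and 97 (57.3%) with the length and GC correction. Deviations of same-numbered libraries had correlations of 0.10, -0.03 and -0.00, against -0.10 to 0.10 for differently numbered ones. Such values cannot exclude a shared source, so whether the numbers pair the libraries is not known. With a replicate block 4 of the 35 genes were again called, 2 lower and 2 higher. The causes of lost calls were not tested. Mitochondrial genes had the larger standard errors (median 0.34, against 0.17 for cytosolic genes), and 7 of 15 averaged under 10 FPKM.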

Other observations

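The amidotransferase that completes the charging of mitochondrial glutamine tRNA has subunits encoded by Gatb, Gatc and Qrsl1, and their values were looked at after the fits were seen. Gatc had 0.83, 2.88 and 0.00 FPKM in IgG1 libraries, against 10.5, 5.27 and 4.94 FPKM in IgM libraries, which did not overlap, and its limma log2 fold change was -1.97 (SE 0.54, adjusted p = 0.0524), with a call in 4 of 12 other settings that kept all libraries. Qrsl1, the catalytic subunit, had 23.9, 25.2 and 14.7 FPKM in IgG1 and 15.3, 11.7 and 9.09 FPKM in IgM libraries (0.76, SE 0.30, adjusted p = 0.16 with limma). Gatb had 9.53, 12.05 and 18.3 FPKM in IgG1 and 7.67, 11.0 and 10.9 FPKM in IgM libraries (0.37, SE 0.33, adjusted p = 0.565 with limma). None of the 3 passed the threshold as tested, and exons of none overlap another protein-coding gene.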
